A study of Mus musculus with 16 samples.

Results

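Arginine is the substrate of enzymes that set much of what a macrophage makes from it, and 10 genes of that metabolism are described here across macrophages of 3 body cavities and of the heart. They are the arginases Arg1 and Arg2, the inducible nitric oxide synthase Nos2, the cationic amino acid transporter Slc7a2, the citrulline-recycling enzyme Ass1, the ornithine aminotransferase Oat, and the polyamine enzymes Odc1, Srm, Sms and Sat1. The genes were chosen by symbol, and all 10 were found among the 24981 genes of the deposited table. Of the 10, 8 were among the 11234 genes that were tested, those with at least 4 of the 16 libraries at an RPKM of 1 or above. RPKM counts reads relative to transcript length in kilobases and to the reads of the library.

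RNA was sequenced from macrophages sorted from C57BL/6 mice 8 weeks of age. Macrophages of the pericardial cavity (the space around the heart), of the pleural cavity (around the lungs) and of the peritoneal cavity (of the abdomen) were collected by lavage, and another population came from the heart itself. Each population had 4 libraries, numbered 2 to 5 in their titles, and no treatment or altered allele is named in the labels for any of them. The labels do not say whether the libraries of a population came from separate or pooled animals, so a p-value here speaks only of the spread among libraries, which may be technical.

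Arginase splits arginine into urea and ornithine, and nitric oxide synthase turns the same arginine into nitric oxide and citrulline. Ornithine can pass to proline and glutamate through Oat, or to the polyamines putrescine, spermidine and spermine through Odc1, Srm and Sms in turn, while Sat1 acetylates polyamines for breakdown and export. In mouse macrophages Arg1 is widely used as a marker of alternative activation, and Nos2 as a marker of classical activation.

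The libraries held 40886702 to 70166356 alignments, and the sum of all RPKM was 272981 to 482872 in the cavity libraries and 227397 to 336952 in the heart libraries. Its lowest cavity value was that of peritoneal library 4. With the values as deposited, the median log2 fold of all tested genes against heart was 0.45 for pericardial, 0.36 for pleural and 0.38 for peritoneal macrophages. After every library was brought to the same RPKM total, these medians were -0.12, -0.11 and 0.01 in the same order. Small differences from heart therefore depended on the scaling, and they are marked as such below. The populations matched their labels in cell type markers. The summed RPKM of 5 cavity macrophage markers was 1749 to 2891 in cavity libraries and 50.3 to 67.1 in heart libraries. That of 5 resident cardiac macrophage markers was 18.7 to 82.9 in cavity libraries and 888 to 1317 in heart libraries.

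Arg1 was highest in peritoneal macrophages, over 10 times lower in pericardial and pleural macrophages, and close to the bottom of the scale in heart macrophages. Arg1 lies on chromosome 10 from 24915221 to 24927484 on the minus strand (GRCm38, GENCODE), and no other annotated gene overlaps it. Its level was 9.06, 17.2, 15.7 and 8.73 RPKM in the pericardial libraries and 8.60, 9.92, 12.5 and 8.52 RPKM in the pleural libraries. It was 172, 194, 163 and 138 RPKM in the peritoneal libraries and 0.253, 0.238, 0.0891 and 0.260 RPKM in the heart libraries. Every peritoneal library stood above every pericardial and pleural library, and each of these stood above every heart library, while the pericardial and pleural ranges overlapped. Among all genes of a library, ordered by RPKM, Arg1 took place 3056 to 5052 in pericardial and 3761 to 4770 in pleural, 233 to 340 in peritoneal and 12931 to 15118 in heart libraries.

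The group means were 12.7 ± 4.40 RPKM in pericardial, 9.90 ± 1.88 RPKM in pleural, 167 ± 23.4 RPKM in peritoneal and 0.210 ± 0.0812 RPKM in heart macrophages (SD, n = 4 each). Tests were run with limma on log2(RPKM + 0.5) over all 16 libraries, with Benjamini-Hochberg adjustment over the 11234 tested genes. A fold on this scale understates the change of a gene that is low in one population. Arg1 was higher than in heart by a log2 fold of 7.88 ± 0.20 (SE) in peritoneal macrophages (limma adjusted p = 1.08e-16). In pericardial macrophages the log2 fold against heart was 4.16 ± 0.20 (limma adjusted p = 7.68e-13), and in pleural macrophages it was 3.86 ± 0.20 (limma adjusted p = 2.51e-12). As ratios of mean RPKM, the differences from heart were 794-fold in peritoneal, 60.3-fold in pericardial and 47.1-fold in pleural macrophages. The fold against heart moved with the pseudocount, since the heart level lay below it: for peritoneal macrophages it was 9.11 with a pseudocount of 0.1 and 7.11 with a pseudocount of 1.

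**Figure D1:**
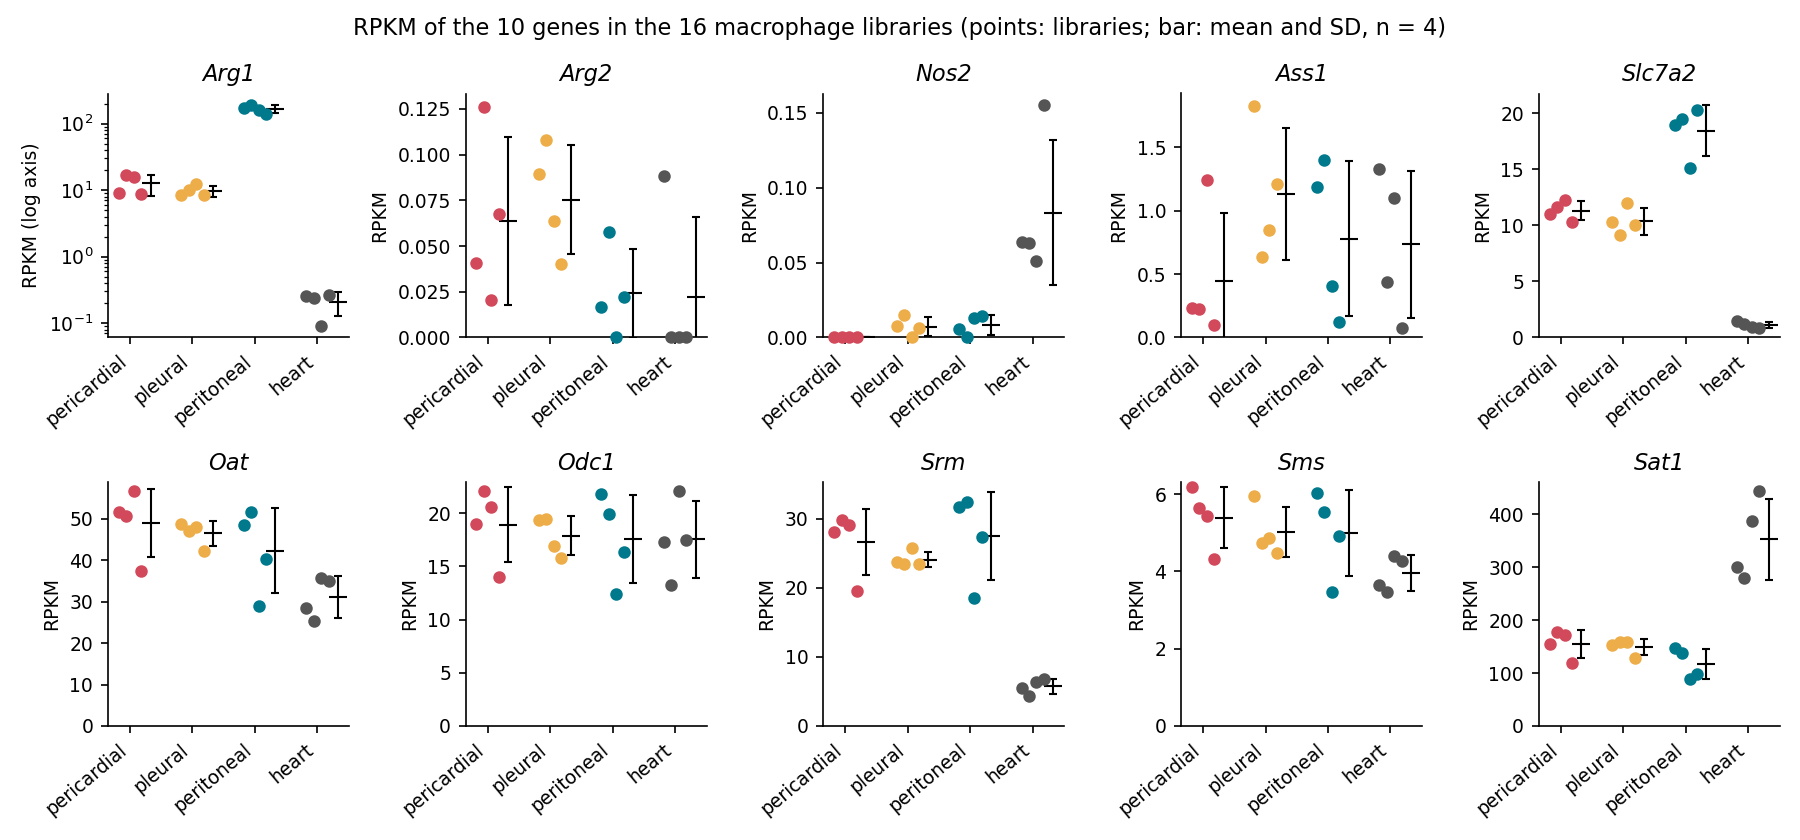
RPKM of the 10 genes in each of the 16 libraries (points, in the order of library numbers 2 to 5), with the mean and SD of each population (black, n = 4, cut at the lower edge of the axis). The Arg1 axis is logarithmic and the others start at 0: the peritoneal libraries hold 138 to 194 RPKM of Arg1, against 0.0891 to 0.260 RPKM in heart, while the Odc1 ranges of the 4 populations overlap.

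Among the 3 cavities, Arg1 separated the peritoneal population from the other 2. Against peritoneal macrophages, Arg1 was lower by a log2 fold of -3.72 ± 0.20 in pericardial macrophages (limma adjusted p = 1.14e-09) and of -4.01 ± 0.20 in pleural macrophages (limma adjusted p = 2.81e-10). As ratios of mean RPKM these were 0.0759 and 0.0593. Of the 11234 genes tested, Arg1 had the most negative fold in both comparisons, and it kept this place under all 19 settings and sets of libraries tried in each. In the peritoneal comparison with heart it had the highest positive fold of all tested genes under 18 of 19 settings, the exception being a pseudocount of 1, where it took place 6. In pericardial against pleural macrophages the log2 fold of Arg1 was 0.29, with a 95% interval of -0.13 to 0.71 (limma adjusted p = 0.968). Same-numbered libraries of these 2 populations deviated together, and Arg1 was higher in the pericardial library of all 4 pairs. With the library number as a block the limma adjusted p was 0.984.

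Of the 8 tested genes, 2 fell in pericardial against peritoneal macrophages and none rose, where 0.952% of all tested genes were called, 0.525% higher and 0.427% lower. The same count was 2 lower and none higher in pleural against peritoneal macrophages, where 0.588% of all tested genes were called, 0.214% higher and 0.374% lower. These background shares moved with the processing. At equal RPKM totals, by median ratio and by quantiles they were 4.24%, 2.24% and 2.69% for pericardial and 6.62%, 4.22% and 4.98% for pleural against peritoneal macrophages, and without peritoneal library 4 the pleural one was 4.36%. With the values as deposited, the 2 genes lower in both comparisons were Arg1 and Slc7a2. In pericardial against pleural macrophages none of the 8 was called by limma, with an unadjusted p under 0.05 for 1 of them (Ass1), and 0.0178% of all tested genes were called, 0.0089% in each direction. The share of all tested genes with an unadjusted p under 0.05 is not given, here or below. Counts at that cut therefore have no background beside them. All tests share the same libraries of each population, so the comparisons are not independent of each other. In bulk libraries, fewer cells that hold an RNA and less of it per cell cannot be told apart.

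Markers of other cells also differed between the cavities. The summed RPKM of 5 mast cell markers was 0.475 to 0.816 in pericardial and 0.184 to 0.720 in pleural libraries, against 2.76 to 12.4 in peritoneal libraries, and none of the 5 was at 0 throughout a population. The summed RPKM of 7 erythroid genes was 82.1 to 1062 in pericardial and 96.4 to 215 in pleural libraries, against 0.954 to 4.70 in peritoneal libraries. The sum of 6 dendritic cell markers was 13.9 to 15.9 in pericardial, 14.2 to 17.1 in pleural and 7.06 to 8.70 in peritoneal libraries. Batf3 of that list was at 9.52 to 13.6, 10.6 to 11.4 and 2.84 to 5.61 RPKM in the same order. Clec9a leaned the other way, with 0.0302 to 0.131, 0.0520 to 0.156 and 0.156 to 0.241 RPKM. Xcr1 overlapped, with 0.608 to 3.22, 1.61 to 3.40 and 0.393 to 5.02 RPKM. The part of these cells in the Arg1 difference was not tested.

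**Figure D2:**
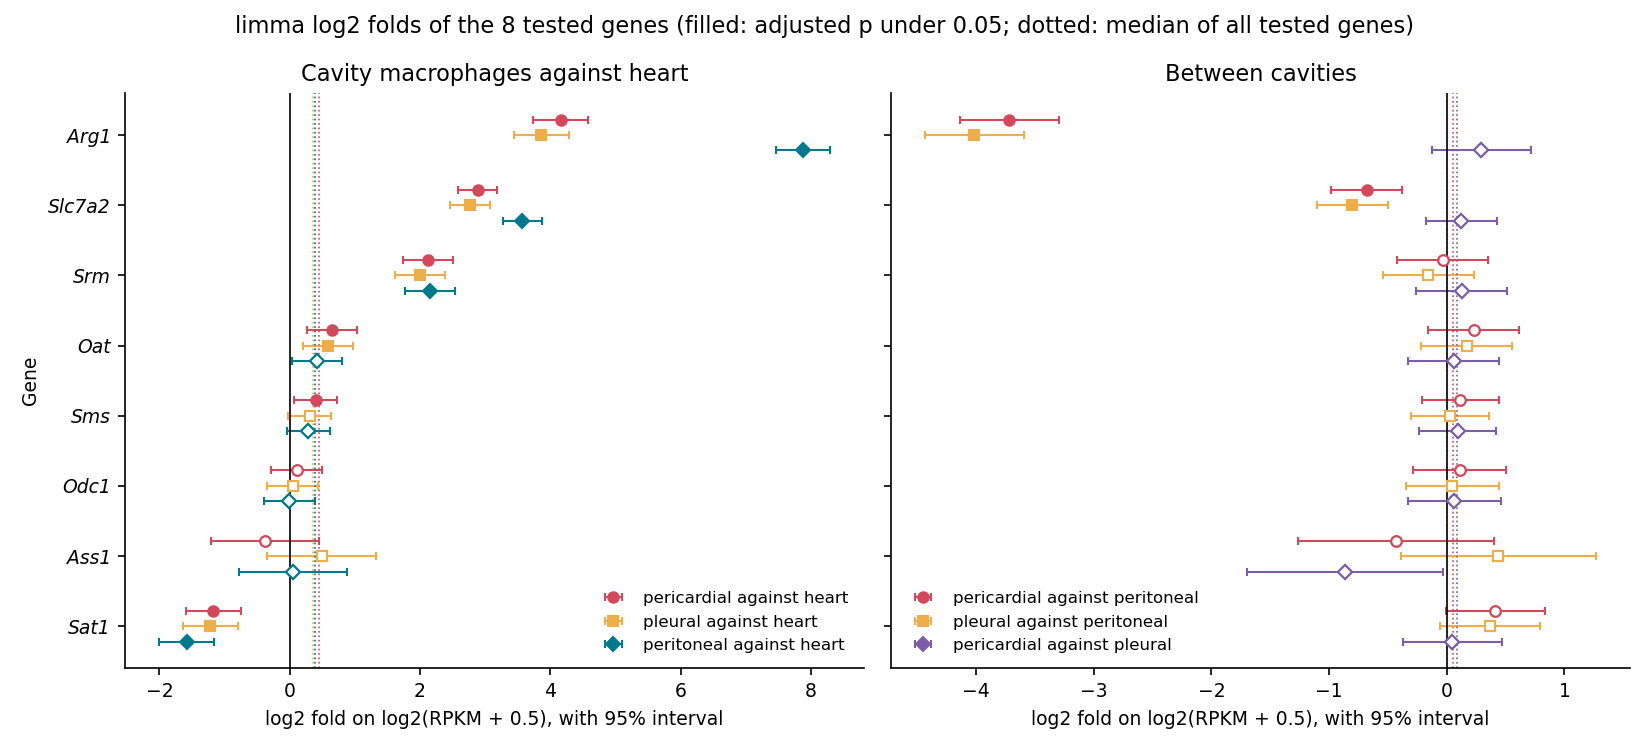
Log2 folds of the 8 tested genes with their 95% intervals from limma, for the cavity populations against heart (left) and between cavities (right); filled symbols have an adjusted p under 0.05 and dotted lines mark the median of all tested genes. Arg1 and Slc7a2 lie far right of the medians against heart and are the genes with filled symbols between cavities, while Sat1 lies left of 0 against heart.

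Genes whose levels followed Arg1 most closely over the 16 libraries were found by the root mean square (RMS) difference between log2(RPKM + 0.5) profiles, each centred on its own mean, among 10636 genes. Marco, a scavenger receptor, came first with an RMS difference of 1.01, followed by the membrane metalloprotease Adam8 with 1.25, Slfn4 of the schlafen family with 1.33, Tox2 with 1.43, Ccm2l with 1.44 and the fatty acid binding protein Fabp5 with 1.45. The median over all ranked genes was 2.67, and a flat gene would have had 2.80. Marco averaged 54.0 RPKM in pericardial and 73.7 in pleural, 207 in peritoneal and 1.04 in heart macrophages. Adam8 averaged 27.0 RPKM in pericardial and 24.6 in pleural, 67.9 in peritoneal and 2.2 in heart macrophages. The 6 genes were chosen by their levels in these same libraries, so their folds are a description without a test. Against peritoneal macrophages the log2 folds of Marco were -1.94 in pericardial and -1.46 in pleural macrophages, and those of Adam8 were -1.31 and -1.43. None of the 6 had a fold between cavities as large as that of Arg1. Of the other tested genes of arginine metabolism, Slc7a2 took place 37, Srm place 321 and Sat1 place 9954 in this order.

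**Figure D3:**
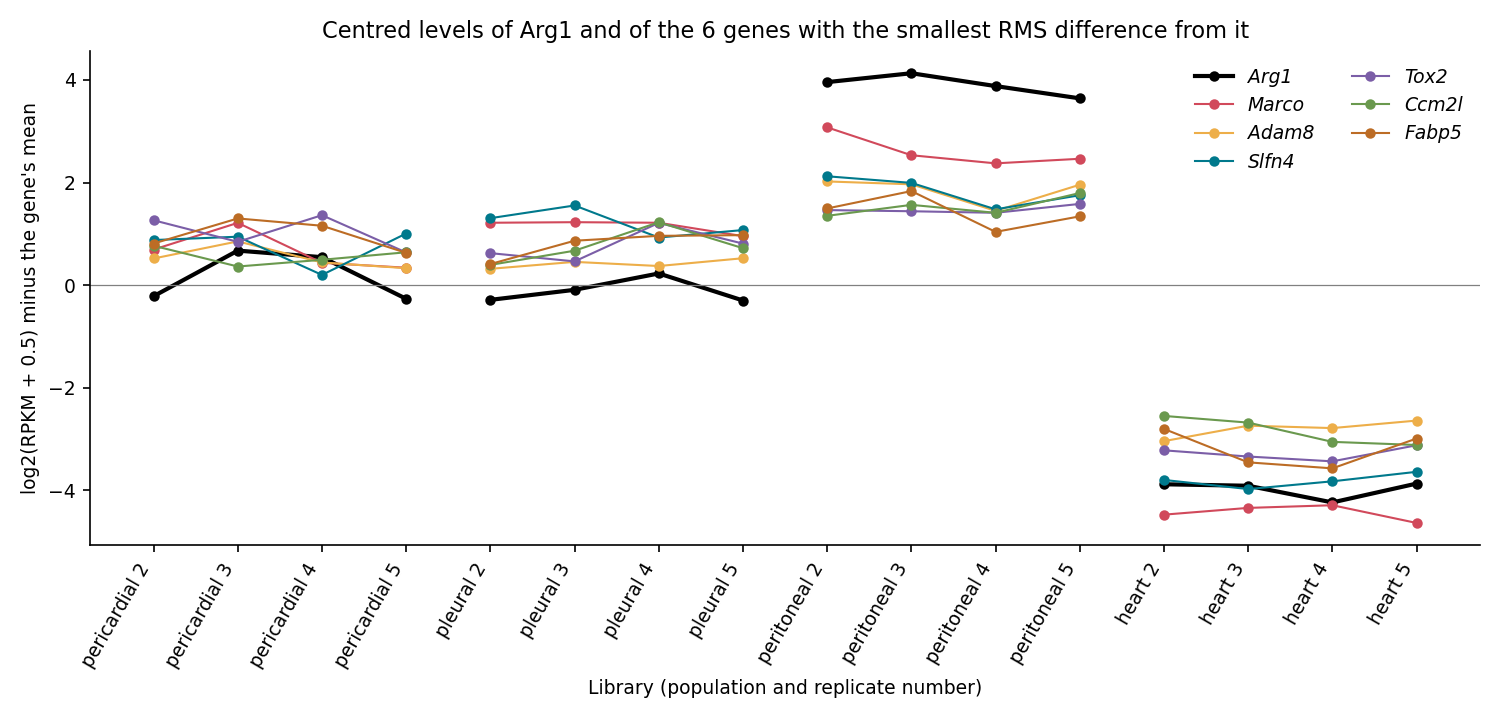
Levels of Arg1 (thick black line) and of the 6 genes with the smallest RMS difference from it, as log2(RPKM + 0.5) minus each gene's mean over the 16 libraries. All 7 genes are lowest in the heart libraries and have their highest population mean in the peritoneal libraries, and Arg1 has the widest gap between peritoneal and the other cavities.

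Slc7a2, which encodes the cationic amino acid transporter CAT-2, had the same order of populations as Arg1 but a smaller spread. The gene lies on chromosome 8 from 40862396 to 40922308 on the plus strand (GRCm38), and its exons overlap those of Gm26584 on the other strand. How strand was handled in counting is not given in the sources used here, so reads of the pair cannot be told apart. CAT-2 is known in 2 forms, a high-affinity and a low-affinity one, that differ by a pair of mutually exclusive exons. These exons are shown because the authors' transcript values split between them. They are exon 7 of 12 in each transcript, at chr8:40908056-40908195 (NM_001044740, 140 bases) and chr8:40908398-40908534 (NM_007514, 137 bases), plus strand, read from the GENCODE transcripts of GRCm38. Aligned to each other they share 84 identical bases, and capitals mark the bases without an identical partner.
NM_001044740: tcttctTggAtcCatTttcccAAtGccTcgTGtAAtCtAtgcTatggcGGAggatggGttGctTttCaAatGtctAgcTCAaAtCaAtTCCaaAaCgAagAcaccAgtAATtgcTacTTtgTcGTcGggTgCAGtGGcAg
NM_007514: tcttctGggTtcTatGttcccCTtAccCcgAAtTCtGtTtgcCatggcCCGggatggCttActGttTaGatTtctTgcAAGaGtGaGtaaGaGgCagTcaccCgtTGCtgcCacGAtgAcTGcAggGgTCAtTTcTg

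Slc7a2 was at 11, 11.6, 12.3 and 10.3 RPKM in the pericardial libraries and at 10.3, 9.11, 12 and 10 RPKM in the pleural libraries. It was at 18.9, 19.5, 15.1 and 20.3 RPKM in the peritoneal libraries and at 1.48, 1.18, 0.892 and 0.872 RPKM in the heart libraries. The 4 heart libraries were all below the 12 cavity libraries, and the 4 peritoneal libraries were all above the pericardial and pleural ones. The log2 fold against heart was 2.89 ± 0.14 in pericardial, 2.77 ± 0.14 in pleural and 3.57 ± 0.14 in peritoneal macrophages (limma adjusted p = 1.25e-12, 2.55e-12 and 4.2e-14 in that order). Against peritoneal macrophages, Slc7a2 fell by 0.80 ± 0.14 on the log2 scale in pleural macrophages (limma adjusted p = 0.00744). In pericardial macrophages it fell by 0.68 ± 0.14 (limma adjusted p = 0.0201), and this call was lost without any 1 of pericardial libraries 2, 3 and 5 or peritoneal libraries 2, 3 and 5, with adjusted p up to 0.103.

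In the authors' deposited table of transcripts, both forms were lower in heart than in the cavities, and not in proportion. That table gives group means of log2 values, which equal log2(RPKM + 0.1) of the deposited gene values within 4.82e-06 for the 6 genes with 1 transcript. The authors' mean log2 value of NM_001044740 was 3.25 in pericardial and 3.10 in pleural, 4.01 in peritoneal and -0.40 in heart macrophages. For NM_007514 the authors' deposited table gives 1.07 in pericardial and 1.07 in pleural, 1.48 in peritoneal and -0.88 in heart macrophages. Taken back to RPKM, NM_001044740 made up 82.4% of the 2 forms in pericardial and 80.8% in pleural, 85.6% in peritoneal and 59.6% in heart macrophages in the authors' deposited table. These are means without an error of their own. How reads that fit both forms were shared out is not given in the sources used here.

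**Figure D4:**
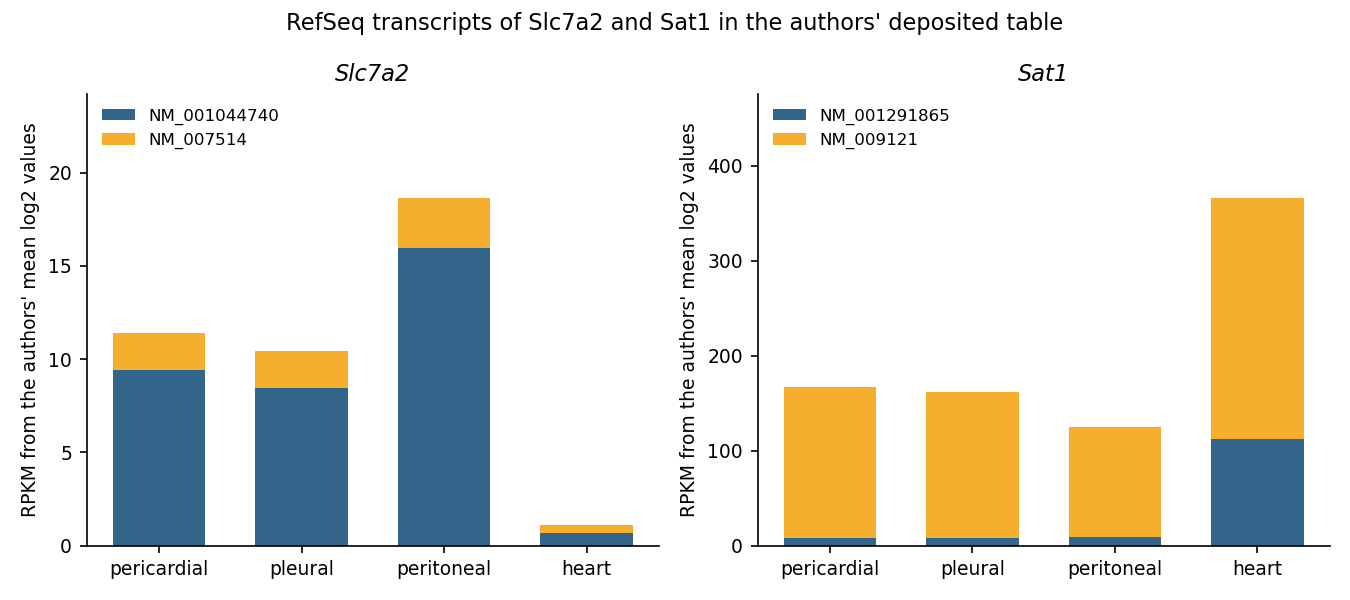
RPKM of the RefSeq transcripts of Slc7a2 (left) and Sat1 (right), taken back from the group means of log2 values in the authors' deposited table and stacked. In heart the total of Slc7a2 is the lowest of the 4 populations and that of Sat1 the highest, and NM_001291865 makes up 30.7% of Sat1 in heart against 4.61% to 7.22% in the cavities.

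Of the 10 genes, the other 2 whose enzymes split or oxidise arginine, Arg2 and Nos2, were near the bottom of the scale. Arg2, the mitochondrial arginase, reached at most 0.126 RPKM in any library and was listed at 0 in 1 peritoneal and 3 heart libraries. The gene lies on chromosome 12 from 79130777 to 79156301 on the plus strand, and its exons overlap Gm48780 and Vti1b on the other strand. Nos2, on chromosome 11 from 78920787 to 78960254 on the plus strand, was listed at 0 in all 4 pericardial libraries. It was at 0 to 0.0152 RPKM in the pleural libraries, at 0 to 0.0144 RPKM in the peritoneal libraries and at 0.0638, 0.0630, 0.0510 and 0.155 RPKM in the heart libraries. Every heart library was above every cavity library for Nos2, at levels where no gene was tested. Without the filter on low values, limma gave Nos2 log2 folds of -0.22, -0.20 and -0.20 against heart in pericardial, pleural and peritoneal macrophages (adjusted p = 0.000679, 0.00165 and 0.0017 in that order). The same fit gave Arg2 adjusted p of 0.194, 0.111 and 0.961 against heart. The number of reads behind such values could not be recovered from the RPKM, so no counting interval is given.

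Ass1, argininosuccinate synthase, which starts the conversion of citrulline back to arginine, was low and varied as much within populations as between them. It lies on chromosome 2 from 31470207 to 31520672 on the plus strand. Its level was 0.236, 0.221, 1.24 and 0.0972 RPKM in pericardial, 1.83, 0.639, 0.849 and 1.21 RPKM in pleural, 1.19, 1.40, 0.404 and 0.124 RPKM in peritoneal and 1.33, 0.434, 1.10 and 0.0735 RPKM in heart libraries. All 4 ranges overlapped. The widest log2 difference, pericardial minus pleural, was -0.87 with a 95% interval of -1.70 to -0.04 (limma adjusted p = 0.968), and no comparison was called.

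Among the genes that use ornithine, Oat was called higher than in heart in pericardial and pleural macrophages, and Odc1 was not called in any cavity with the values as deposited. Oat lies on chromosome 7 from 132557478 to 132576398 on the minus strand. Its level was 51.6, 50.6, 56.6 and 37.3 RPKM in pericardial, 48.8, 47.0, 48.0 and 42.2 RPKM in pleural, 48.5, 51.7, 28.9 and 40.2 RPKM in peritoneal and 28.5, 25.3, 35.6 and 34.9 RPKM in heart libraries. The pericardial and pleural libraries were all above the heart libraries, and peritoneal library 4 lay within the heart range. The log2 fold of Oat against heart was 0.64 ± 0.19 in pericardial (limma adjusted p = 0.00487), 0.59 ± 0.19 in pleural (0.0103) and 0.42 ± 0.19 in peritoneal macrophages (0.056). These folds were near the medians of all genes. At equal RPKM totals the pericardial and pleural folds were 0.02 and 0.06 and were not called. Both calls were also lost by quantile normalization. Without peritoneal library 4 the peritoneal fold was 0.59 and was called (limma adjusted p = 0.00377). It was also called without heart library 4 or 5 (limma adjusted p = 0.043 and 0.0436), and that of Sms was called without peritoneal library 4 (0.43, limma adjusted p = 0.00853).

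Odc1, ornithine decarboxylase, the first and rate-limiting enzyme of polyamine synthesis, lies on chromosome 12 from 17544794 to 17551505 on the plus strand. Its level was 19.0, 22.1, 20.6 and 14.0 RPKM in pericardial, 19.4, 19.5, 16.9 and 15.8 RPKM in pleural, 21.8, 19.9, 12.4 and 16.4 RPKM in peritoneal and 17.3, 13.3, 22.1 and 17.5 RPKM in heart libraries. All 4 populations overlapped, and the means were 18.9, 17.9, 17.6 and 17.6 RPKM in the same order. The log2 fold against heart was 0.11 with a 95% interval of -0.29 to 0.50 in pericardial macrophages (limma adjusted p = 0.629). It was 0.04 with an interval of -0.35 to 0.44 in pleural and -0.01 with an interval of -0.40 to 0.39 in peritoneal macrophages (limma adjusted p = 0.859 and 0.98). With all libraries at the same total, Odc1 fell by 0.52, 0.47 and 0.41 on the log2 scale against heart and all 3 folds were called (limma adjusted p = 0.00115, 0.00227 and 0.00647), so its place relative to heart depended on the scaling.

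The spermidine synthase gene Srm had the clearest difference among the polyamine enzymes and rose in all 3 cavities against heart. It lies on chromosome 4 from 148591503 to 148594993 on the plus strand. Its level was 28.1, 29.8, 29.1 and 19.5 RPKM in pericardial, 23.7, 23.5, 25.7 and 23.4 RPKM in pleural, 31.7, 32.4, 18.6 and 27.3 RPKM in peritoneal and 5.43, 4.30, 6.42 and 6.75 RPKM in heart libraries. The lowest cavity library stood above the highest heart library, and the 3 cavities overlapped. The means were 26.6 ± 4.82 RPKM in pericardial, 24.1 ± 1.08 RPKM in pleural, 27.5 ± 6.37 RPKM in peritoneal and 5.72 ± 1.10 RPKM in heart macrophages (SD, n = 4 each). The log2 fold against heart was 2.12 ± 0.19 in pericardial (limma adjusted p = 6.99e-09), 2.0 ± 0.19 in pleural (1.82e-08) and 2.16 ± 0.19 in peritoneal macrophages (5.44e-09). When totals were made equal, these folds were 1.52, 1.5 and 1.78, and all were still called.

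Sms, spermine synthase, the next enzyme, was called higher than in heart in pericardial macrophages and in neither of the other cavities. It lies on chromosome X from 157443855 to 157492287 on the minus strand. Its level was 6.18, 5.64, 5.43 and 4.31 RPKM in pericardial, 5.96, 4.74, 4.87 and 4.49 RPKM in pleural, 6.04, 5.53, 3.46 and 4.93 RPKM in peritoneal and 3.65, 3.46, 4.41 and 4.28 RPKM in heart libraries. The pleural libraries were just above the heart libraries, and the other cavities overlapped with heart. The log2 fold of Sms against heart was 0.40 ± 0.16 in pericardial (limma adjusted p = 0.0309), 0.31 ± 0.16 in pleural (0.0961) and 0.28 ± 0.16 in peritoneal macrophages (0.122). The pericardial call was lost without any 1 of pericardial libraries 2, 3 and 4 or heart libraries 2 and 3, without the filter on low values (limma adjusted p = 0.0508), and under each of the other 3 scalings, and at equal RPKM totals all 3 folds were negative (-0.17, -0.17 and -0.09).

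Sat1, spermidine/spermine N1-acetyltransferase, was the highest of the 10 genes in RPKM in the pericardial, pleural and heart libraries, and was lower in every cavity than in heart. It lies on chromosome X from 155213132 to 155216449 on the minus strand. Its level was 154, 177, 171 and 119 RPKM in pericardial, 152, 158, 159 and 128 RPKM in pleural, 147, 137, 88.7 and 98.1 RPKM in peritoneal and 300.0, 279, 388 and 443 RPKM in heart libraries. No cavity library reached the lowest heart library, and the 3 cavities overlapped. Against heart, Sat1 fell by 1.17 ± 0.20 on the log2 scale in pericardial macrophages (limma adjusted p = 5.47e-05), by 1.22 ± 0.20 in pleural macrophages (limma adjusted p = 4.01e-05) and by 1.59 ± 0.20 in peritoneal macrophages (limma adjusted p = 1.5e-06). Under equal totals, the falls were 1.81, 1.74 and 2.0. Between cavities Sat1 was not called with the values as deposited. In pleural against peritoneal macrophages its log2 fold was 0.37 (limma adjusted p = 0.582), and at equal RPKM totals it was 0.25 and was called (limma adjusted p = 0.0434). It was also called by quantile normalization (limma adjusted p = 0.0300).

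The difference in Sat1 was unequal between its transcripts as the authors' values split them. In the authors' deposited table, NM_001291865 had a mean log2 value of 2.97 in pericardial and 3.10 in pleural, 3.19 in peritoneal and 6.81 in heart macrophages. The other transcript, NM_009121, had 7.32 in pericardial and 7.26 in pleural, 6.86 in peritoneal and 7.99 in heart macrophages in the authors' deposited table. The authors' ratio of heart over pericardial, with heart on top, was 14.4 for NM_001291865 and 1.59 for NM_009121. Taken back to RPKM from the authors' deposited table, NM_001291865 made up 4.61% of Sat1 in pericardial and 5.25% in pleural, 7.22% in peritoneal and 30.7% in heart macrophages. The table carries no error for these shares, and the difference between the transcripts was not tested. How reads that fit both Sat1 transcripts were shared out is not given in the sources used here, and the shares rest on it.

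Ratios between genes within a library do not change when all its values are multiplied by 1 factor, as at equal RPKM totals or by median ratio; quantile normalization does change them. Srm over Odc1 was 1.35 to 1.48 in pericardial, 1.2 to 1.52 in pleural, 1.45 to 1.67 in peritoneal and 0.290 to 0.385 in heart libraries. Sat1 over Odc1 was 8.02 to 8.51 in pericardial, 7.84 to 9.46 in pleural, 6.00 to 7.13 in peritoneal and 17.3 to 25.2 in heart libraries. Both ratios separated all cavity libraries from all heart libraries, Srm being higher and Sat1 lower relative to Odc1 in the cavities. Sms over Srm was 0.186 to 0.221 in pericardial, 0.190 to 0.252 in pleural, 0.171 to 0.191 in peritoneal and 0.634 to 0.803 in heart libraries. Arg1 over Slc7a2 was 0.825 to 1.48 in pericardial, 0.833 to 1.09 in pleural, 6.78 to 10.8 in peritoneal and 0.0998 to 0.298 in heart libraries. This ratio held 3 levels without overlap, heart at the bottom, then pericardial and pleural together, then peritoneal.

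**Figure D5:**
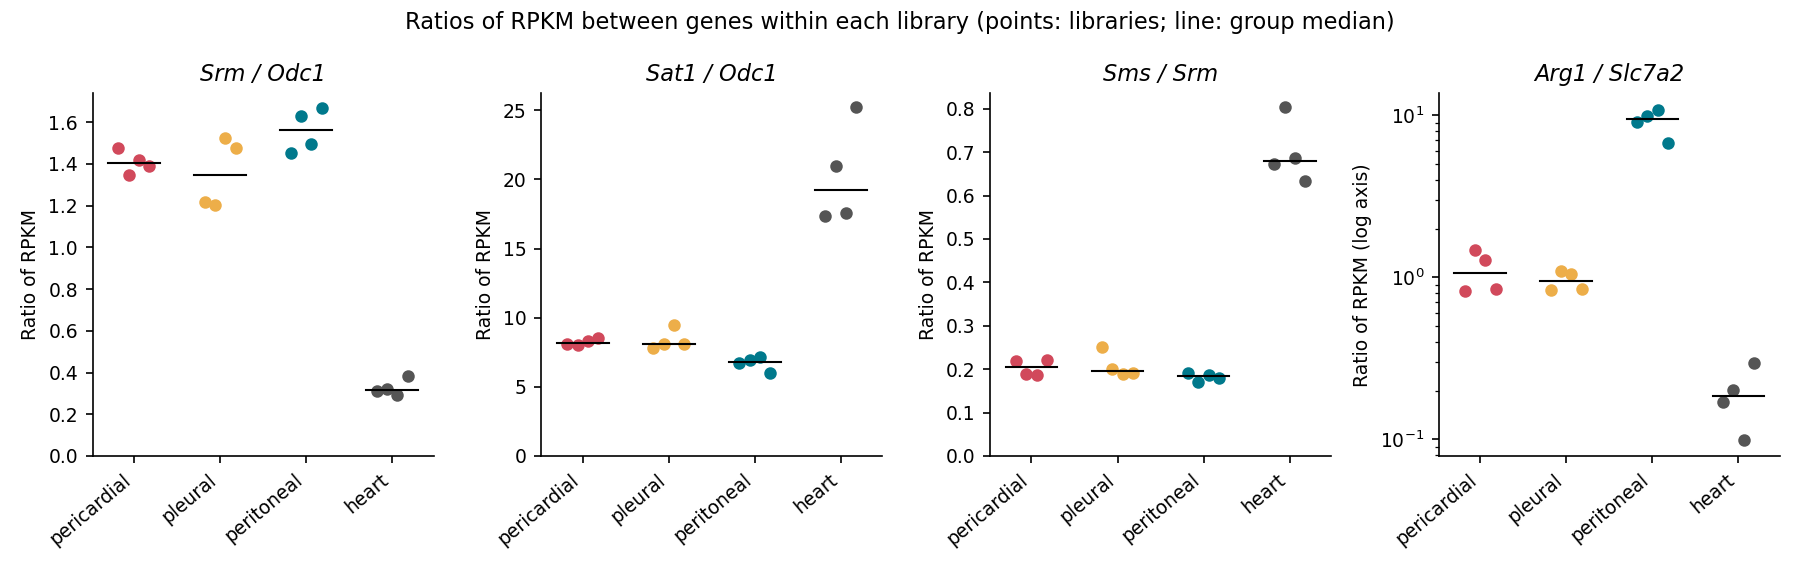
Ratios of RPKM between pairs of genes within each library (points) with the median of each population (black line); the Arg1 over Slc7a2 axis is logarithmic and the others start at 0. Srm over Odc1 is 1.2 to 1.67 in cavity libraries and 0.290 to 0.385 in heart libraries, and Arg1 over Slc7a2 is 6.78 to 10.8 in the peritoneal libraries alone.

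Counted together against heart, 5 of the 8 tested genes rose and 1 fell in pericardial macrophages (Arg1, Slc7a2, Srm, Oat and Sms up, Sat1 down), where 68.5% of all tested genes were called, 53.8% higher and 14.7% lower. In pleural macrophages 4 rose and 1 fell, where 61.7% of all tested genes were called, 47.8% higher and 13.9% lower. In peritoneal macrophages 3 rose and 1 fell, where 62.9% of all tested genes were called, 48.8% higher and 14.1% lower. The median log2 fold of the 8 was 0.52 in pericardial, 0.54 in pleural and 0.35 in peritoneal macrophages, beside 0.45, 0.36 and 0.38 for all tested genes. At equal RPKM totals the split was 3 higher and 2 lower in each of the 3 comparisons, with Arg1, Slc7a2 and Srm higher and Sat1 and Odc1 lower. Of all tested genes, 60.2% were then called in pericardial (24% higher, 36.2% lower), 57% in pleural (24.1% higher, 32.8% lower) and 58.3% in peritoneal macrophages (30.9% higher, 27.4% lower).

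Markers of other cell types also differed between heart and cavity libraries. The summed RPKM of 12 cardiomyocyte genes was 2.86 to 5.0 in the cavity libraries and 324 to 671 in the heart libraries, with Myl3 at 0 in the pericardial and peritoneal libraries. Ryr2, also of that list, went the other way, with 1.25 to 2.37 RPKM in the cavity libraries and 0.251 to 0.719 RPKM in the heart libraries. The summed RPKM of 8 fibroblast genes was 0.173 to 0.867 in the cavity libraries and 59.8 to 279 in the heart libraries, with none at 0 throughout a population. B cell markers went the other way. The sum of 6 of them was 15.3 to 74.3 in the cavity libraries and 7.43 to 12.6 in the heart libraries, though Cd79b of that list overlapped. The sum of 6 dendritic cell markers was 7.06 to 17.1 in the cavity libraries and 27.8 to 42.0 in the heart libraries. Of these, Xcr1, Clec9a and Ccr7 overlapped between heart and cavity libraries. The sum of 7 T and NK cell markers was 1.03 to 2.66 in the cavity libraries and 4.54 to 6.91 in the heart libraries. Of the 7, Cd4 alone was separated, with 0.0332 to 0.254 RPKM in cavity and 2.66 to 4.33 RPKM in heart libraries. The others, among them Cd3e, Cd8a, Ncr1 and Nkg7, overlapped. The sum of 8 endothelial markers was 415 to 722 in the cavity libraries and 13.7 to 32.1 in the heart libraries. Fabp4 made up most of it in the cavities, at 414 to 721 RPKM. Aqp1 of that list went the other way, with at most 0.191 RPKM in cavity and 4.63 to 7.80 RPKM in heart libraries. Cdh5, Kdr, Tie1 and Tek were also higher in every heart library, and Pecam1 and Cldn5 overlapped. All 20 immediate early and heat shock genes tested, many of which are known to be induced quickly by stress on cells, fell in each cavity against heart, with a median log2 fold of -3.88 in pericardial, -4.31 in pleural and -4.81 in peritoneal macrophages. Fos averaged 49.9 RPKM in pericardial and 13.0 in pleural, 6.05 in peritoneal and 1855 in heart macrophages. Of all tested genes, 14.7% fell in pericardial, 13.9% in pleural and 14.1% in peritoneal against heart macrophages. Between cavities, 11 of the 20 rose in pericardial and 3 rose in pleural against peritoneal macrophages, and none fell. Of all tested genes, 0.525% and 0.214% rose in these comparisons, in the same order. In pericardial against pleural macrophages 1 of the 20 rose and none fell, where 0.0089% of all tested genes rose. The part of these cells and genes in the differences from heart was not tested.

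The wider arginine and polyamine genes were followed in 6 lists of 75 genes beside the 10, of which 55 were tested. In pericardial against heart macrophages 30 rose and 12 fell, in pleural 27 rose and 13 fell, and in peritoneal 22 rose and 11 fell. Of all tested genes 53.8%, 47.8% and 48.8% rose and 14.7%, 13.9% and 14.1% fell in the same order. With equal totals the splits were 15 and 24, 16 and 22, and 18 and 17. Of all tested genes 24%, 24.1% and 30.9% then rose and 36.2%, 32.8% and 27.4% fell. These shares of all tested genes are also the background for the counts of each list against heart below. Between cavities, limma called none of the 55 in any of the 3 comparisons. An unadjusted p under 0.05 was reached by 4 in pericardial against peritoneal, 6 in pleural against peritoneal and 0 in pericardial against pleural macrophages. These unadjusted counts have no share of all tested genes beside them and are not read as a result. Under the other 3 scalings between 0 and 5 of the 55 were called, all of them lower. Of all tested genes, 1.06% to 3.24% were then called lower in pericardial and 3.36% to 5.63% in pleural against peritoneal macrophages. In pericardial against pleural macrophages that share was 0.0089%.

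Of 7 tested genes of arginine and citrulline turnover, 3 rose and 3 fell in pericardial and in pleural against heart macrophages, and 2 rose and 4 fell in peritoneal. With equal totals the split in pleural macrophages was 2 and 4. Padi4, which converts arginine in proteins to citrulline, averaged 444 RPKM in pericardial and 411 in pleural, 497 in peritoneal and 3.17 in heart macrophages. Its log2 folds against heart were 6.94, 6.83 and 7.09 in the same order of cavities, all called by limma. Gatm, which takes the amidino group of arginine for creatine synthesis, averaged 0.867 RPKM in pericardial and 0.792 in pleural, 1.01 in peritoneal and 52.4 in heart macrophages. Its log2 folds against heart were -5.23, -5.31 and -5.09. Ddah2, of the dimethylarginine dimethylaminohydrolase family, averaged 4.11 RPKM in pericardial and 4.95 in pleural, 5.87 in peritoneal and 9.17 in heart macrophages. The mitochondrial ornithine carrier Slc25a15 averaged 2.89, 2.52 and 2.69 RPKM in the cavities in that order and 1.2 in heart.

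Of 8 tested transporters of cationic and partner amino acids beside Slc7a2, 1 rose and 3 fell in pericardial, 1 rose and 5 fell in pleural, and 1 rose and 3 fell in peritoneal against heart macrophages. When totals were made equal, 1 rose and 6 fell in each. The riser was Slc7a1, the widely expressed cationic amino acid transporter CAT-1, with 2.80 RPKM in pericardial and 2.40 in pleural, 3.48 in peritoneal and 0.891 in heart macrophages. Slc3a2, the heavy chain that several of these carriers pair with, averaged 34.6 RPKM in pericardial and 44.2 in pleural, 39.2 in peritoneal and 97.9 in heart macrophages, and fell against heart in all 3 cavities by 1.51, 1.14 and 1.37 on the log2 scale.

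Of 14 other tested polyamine genes, 7 rose and 2 fell in pericardial, 6 rose and 2 fell in pleural, and 5 rose and 2 fell in peritoneal against heart macrophages. Under equal totals, 4 rose and 6 fell, 5 rose and 6 fell, and 5 rose and 3 fell. The 2 that fell were the polyamine oxidases Smox and Paox. Smox averaged 4.52 RPKM in pericardial and 4.72 in pleural, 4.13 in peritoneal and 12.7 in heart macrophages, and Paox averaged 3.03, 3.08, 3.99 and 9.86 RPKM in the same order. Mtap, which clears the methylthioadenosine that Srm and Sms release, averaged 11.6 RPKM in pericardial and 10.5 in pleural, 10.7 in peritoneal and 3.69 in heart macrophages. Dohh, which completes the spermidine-derived hypusine residue of eIF5A, averaged 28.5 RPKM in pericardial and 27.7 in pleural, 23.1 in peritoneal and 9.77 in heart macrophages. Amd1 and Amd2 are near-identical copies, and reads can be split between them.

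Of 11 tested genes of the proline and glutamate branch, 7 rose and 1 fell in pericardial, and 5 rose and none fell in pleural and in peritoneal against heart macrophages. At equal RPKM totals 3 rose and 4 fell, 3 rose and 3 fell, and 4 rose and 1 fell. P4ha2, a subunit of prolyl hydroxylase, averaged 15.3 RPKM in pericardial and 13.5 in pleural, 16.1 in peritoneal and 2.29 in heart macrophages. Prodh, which breaks proline down, averaged 4.05 RPKM in pericardial and 4.37 in pleural, 4.48 in peritoneal and 0.944 in heart macrophages. Of 10 genes of the methionine cycle and salvage, 7 rose and 3 fell in pericardial and in pleural and 6 rose and 2 fell in peritoneal against heart macrophages. With all libraries at the same total, 2 rose and 4 fell, 2 rose and 3 fell, and 3 rose and 3 fell. Got1, an aspartate aminotransferase, fell in each cavity, with 4.67 RPKM in pericardial and 4.72 in pleural, 5.22 in peritoneal and 19.9 in heart macrophages.

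The 5 tested genes that make or recycle tetrahydrobiopterin, the cofactor of nitric oxide synthases, all rose in pericardial and pleural macrophages, and 3 of the 5 rose in peritoneal macrophages against heart. Of all tested genes 53.8%, 47.8% and 48.8% rose in these comparisons. When totals were made equal, 2, 3 and 3 of them rose and none fell. Gch1, the first enzyme of that route, averaged 11.3 RPKM in pericardial and 10.5 in pleural, 8.94 in peritoneal and 5.28 in heart macrophages. Nos2 was at or near 0 in the cavities and also low in heart, at 0.0510 to 0.155 RPKM. Pts, the enzyme after Gch1, averaged 21.3 RPKM in pericardial and 20.4 in pleural, 18.2 in peritoneal and 7.76 in heart macrophages.

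Of 11 tested markers of alternative activation, 4 rose and 6 fell in pericardial, and 3 rose and 6 fell in pleural and in peritoneal against heart macrophages. With equal totals 4 rose and 7 fell, 3 rose and 7 fell, and 3 rose and 6 fell. Fn1 averaged 2807 RPKM in pericardial and 2065 in pleural, 3394 in peritoneal and 17.4 in heart macrophages, while the mannose receptor gene Mrc1 averaged 6.78, 5.63, 4.64 and 271 RPKM in the same order. Chil3, a chitinase-like protein often read beside Arg1, averaged 20.5 RPKM in pericardial and 28.5 in pleural, 10.5 in peritoneal and 0.270 in heart macrophages. Against peritoneal macrophages, the folds of Chil3 were 1.01 in pericardial and 1.35 in pleural and were not called. Limma called none of these 11 between cavities, with an unadjusted p under 0.05 for 2, 2 and 1 of them in pericardial and pleural against peritoneal and in pericardial against pleural macrophages. The share of all tested genes at that unadjusted cut is not given.

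Of 11 tested markers of classical activation, 8 fell in each cavity against heart macrophages, and 2, 2 and 3 rose in pericardial, pleural and peritoneal macrophages. With equal totals 0, 1 and 1 rose and 8, 9 and 8 fell. Il1b averaged 0.306 RPKM in pericardial and 0.658 in pleural, 0.232 in peritoneal and 213 in heart macrophages, and Tnf averaged 0.735, 0.511, 0.613 and 71.8 RPKM in the same order. The immediate early and heat shock genes given above fell in the same comparisons. Between cavities 1 of the 11 was called, the NAD-consuming enzyme Cd38, chosen after its values were seen, which fell by 0.93 in pericardial and by 0.92 in pleural against peritoneal macrophages on the log2 scale (limma adjusted p = 0.00972 and 0.0151). Of all tested genes, 0.427% and 0.374% fell in these comparisons, in the same order. Of 24 regulators of Arg1 and Nos2, 8 rose and 9 fell in pericardial, 5 rose and 10 fell in pleural, and 8 rose and 10 fell in peritoneal against heart macrophages. Under equal totals, 4 rose and 14 fell, 3 rose and 14 fell, and 4 rose and 14 fell. Klf4 averaged 25 RPKM in pericardial and 21.1 in pleural, 20.8 in peritoneal and 271 in heart macrophages. None of the 24 was called by limma between cavities, with an unadjusted p under 0.05 for 6, 2 and 1 of them in pericardial and pleural against peritoneal and in pericardial against pleural macrophages. Without the share of all tested genes at that cut, these counts are not read as a result about the regulators.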

How the data were processed

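RNA of macrophages from 4 populations was sequenced in 16 libraries, 4 per population. The sorted cells went into TRIzol, and a Direct-zol kit and a NEBNext Ultra II kit served for RNA and libraries, per the labels' protocols. The submitters' processing notes name bcl2fastq 2.17.1, TopHat2 2.1.1, Partek 7.18.0723 and the mouse build mm10 (GRCm38). Per the file headers, the deposited values are RPKM of 24981 genes. Further deposited files hold each library's count of alignments and a transcript table with group means of log2 RPKM and a ratio to the pericardial mean. Sort gates, gene annotation, strand handling and the read total behind RPKM: not given in the sources used here.

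RPKM values are not counts, and whole reads could not be recovered from their steps, so no count test was run. For the 11234 genes at 1 RPKM or above in 4 or more libraries, log2(RPKM + 0.5) was fitted with limma 3.58.1 in R 4.3.3, with 1 mean per population over all 16 libraries and a trended empirical Bayes variance (12 residual degrees of freedom). The 6 pairwise comparisons were tested two-sided with Benjamini-Hochberg adjustment over all tested genes, and adjusted p under 0.05 made a call. The procedure was tested on simulated data. Alternatives were pseudocounts of 0.1 and 1, no filter or a filter at 5 RPKM, equal RPKM totals, median-ratio scaling, quantile normalization, the replicate number as a block, fits to 2 populations, no variance trend, and each library left out. The 10 genes and the lists (10 of pathway, regulator and activation genes and 14 of cell markers) were chosen with earlier results of these data known. The genes named are the 10, the 6 nearest to Arg1 in profile, and from each list genes out of the 4 with the widest range of population means. Same-numbered libraries deviated together in the pericardial and pleural populations, with correlations of 0.194 to 0.630 for the 4 pairs, and in no other pair of populations did all 4 pairs do so. Pairing therefore rests on the data and the shared numbers in the titles.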

Additional observations from a re-analysis of the deposited data

Results flagged for a closer look

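In 6 of 39 gene and population sets of 4 libraries, 1 library stood apart from the other 3 by Dixon's criterion, which chance alone meets in about 1 of 20 sets. Arg1 in heart library 4 was 0.0891 RPKM, against 0.238 to 0.260 RPKM in the other heart libraries. Arg2 in heart library 2 was 0.0881 RPKM and was listed at 0 in the other 3. Nos2 in heart library 5 was 0.155 RPKM, against 0.0510 to 0.0638 RPKM in the others. Srm in pericardial library 5 was 19.5 RPKM, against 28.1 to 29.8 RPKM in the others, and that library also had the lowest RPKM sum of the pericardial libraries, 334803. Srm in pleural library 4 was 25.7 RPKM, against 23.4 to 23.7 RPKM in the others. Ass1 in pericardial library 4 was 1.24 RPKM, against 0.0972 to 0.236 RPKM in the others.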

How the results depend on the processing

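Over 48 gene and comparison results, 858 alternative values were computed: 782 kept direction and side of the threshold, and 48 changed sign. Of the values that kept their sign, 20 lost the call and 8 gained one. Some sign changes also crossed the threshold. At equal totals, Sms lost its call in pericardial against heart, and Odc1 gained one in pericardial and pleural against heart. Every Arg1 result kept direction and side of the threshold under all alternatives run, with log2 folds over the settings of 3.44 to 5.34 (pericardial against heart), 3.16 to 5.04 (pleural), 7.11 to 9.11 (peritoneal), -3.94 to -3.67 (pericardial against peritoneal), -4.13 to -3.95 (pleural against peritoneal) and 0.19 to 0.30 (pericardial against pleural).

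These signs changed under other scalings. Against heart, in pericardial, pleural and peritoneal order, Sms was -0.174, -0.166 and -0.087 at equal totals, and -0.0079 in peritoneal by quantiles. Odc1 was -0.52 and -0.47 in pericardial and pleural at equal totals, -0.25 and -0.27 by median ratio and -0.36 and -0.33 by quantiles. Ass1 in peritoneal was -0.24 at equal totals and -0.14 by median ratio. At equal totals, Odc1 and Sms were -0.108 and -0.087 in pericardial and -0.065 and -0.078 in pleural against peritoneal. In pericardial against pleural, Odc1, Sat1, Sms and Oat were -0.043, -0.063, -0.0085 and -0.048 at equal totals, and Odc1, Sat1 and Oat were -0.028, -0.070 and -0.048 by quantiles. None of these values was called, except those of Odc1 against heart at equal totals and by quantiles.

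With 1 library left out, folds that changed sign ran as follows: Odc1 -0.017 to 0.24, -0.080 to 0.16 and -0.13 to 0.15 in pericardial, pleural and peritoneal against heart, and Ass1 -0.27 to 0.35 in peritoneal against heart. In pericardial against peritoneal, Odc1 ran -0.041 to 0.25, Srm -0.21 to 0.11 and Sms -0.033 to 0.21. In pleural against peritoneal, Odc1 ran -0.10 to 0.16, Sms -0.12 to 0.12 and Oat -0.0020 to 0.27. In pericardial against pleural, Odc1 ran -0.017 to 0.20, Sat1 -0.028 to 0.17 and Oat -0.015 to 0.18.

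Genes called in pericardial against peritoneal numbered 107, and 476, 252 and 302 at equal totals, by median ratio and by quantiles (60 to 117 with a library left out, the fewest without pericardial library 2). In pleural against peritoneal they numbered 66, and 744, 474 and 559 (39 without pleural library 5 to 490 without peritoneal library 4). In pericardial against pleural they numbered 2, and 7 with a pseudocount of 0.1, 0 without a filter, 5 by median ratio and 4 in a fit to 2 populations (1 without pericardial library 2 or 4 or pleural library 4, to 4 without pericardial library 5). With the replicate block, and in a fit to 2 populations, 1 of the 10 genes was called in pericardial against peritoneal in place of 2 (1 to 2 with a library left out): Slc7a2 had an adjusted p of 0.0523 with the block. The pairing check did not hold for these populations, and the block changed no other call of the 8 genes. Ass1 had no value with a filter at 5 RPKM. The cause of these changes was not tested. The read counts behind values below 1 RPKM are unknown, which limits what can be said of Arg2, Nos2 and Ass1.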
